A study of Mus musculus with 2 samples.

Results

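Glycine is a fast inhibitory transmitter of the brainstem and spinal cord, and the levels of 9 genes that carry its signal were measured in the hindbrain of newborn mice. They encode the receptor subunits (Glra1, Glra2, Glra3, Glra4 and Glrb), the receptor's anchoring protein gephyrin (Gphn), the plasma membrane transporters of glycine (Slc6a5 and Slc6a9) and the vesicular transporter of glycine and GABA (Slc32a1). The genes were taken by name, not by level, though with earlier results of these data known. They are 9 of the 43346 mouse genes in the deposited tables. Total RNA, freed of ribosomal RNA and kept above 200 nt, was sequenced as stranded read pairs from hindbrain at postnatal day 0. The strain was B6NTac;B6NCrl/Lap, both sexes were pooled and no treatment is listed. There were 2 libraries of 1 group, from 15 mice in replicate 1 and from a pool of a size not given in replicate 2. The labels describe separate tissue isolates but list the same donor identifier for both, which leaves it unknown how much of the spread between them is technical. With 1 group there was no contrast between conditions. The comparisons are between genes within each library and between the libraries, and no test is given because the smallest p that an exact sign-flip test can reach with 2 libraries is 0.5.

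A glycine receptor is a chloride channel built of 5 subunits around a pore. Alpha subunits bind glycine, and the beta subunit binds gephyrin, which holds the receptor beneath the terminal of an inhibitory neuron. In rodents the fetal receptor is known to be rich in the alpha subunit of Glra2, which gives way after birth to that of Glra1. Glycine neurons take glycine up with the product of Slc6a5 (GlyT2) and load it into vesicles with that of Slc32a1 (VGAT or VIAAT), which also loads GABA in GABA neurons. The product of Slc6a9 (GlyT1) clears glycine mainly into astrocytes. Gephyrin also makes the molybdenum cofactor, which a few enzymes need.

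The subunit genes are paralogues, and a coding exon of 68 bases that all of them have shows how far apart their sequences are. It is exon 3 of each alpha subunit gene and exon 4 of Glrb, and the letters are those of GENCODE release M21 on mm10, with capitals at bases that differ from Glra2. The stretches lie at chrX:165289599-165289666 (minus strand, Glra2), chr11:55566209-55566276 (minus, Glra1), chr8:56005117-56005184 (plus, Glra3), chrX:136775486-136775553 (minus, Glra4) and chr3:80878009-80878076 (minus, Glrb).
Glra2: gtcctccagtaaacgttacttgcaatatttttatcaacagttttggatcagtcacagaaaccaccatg
Glra1: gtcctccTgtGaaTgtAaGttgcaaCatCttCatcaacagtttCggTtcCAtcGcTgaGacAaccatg
Glra3: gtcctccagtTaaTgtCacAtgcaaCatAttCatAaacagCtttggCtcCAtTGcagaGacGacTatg
Glra4: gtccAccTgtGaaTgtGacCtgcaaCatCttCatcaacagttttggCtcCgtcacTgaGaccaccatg
Glrb: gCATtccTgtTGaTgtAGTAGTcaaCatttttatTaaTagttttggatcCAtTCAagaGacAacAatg
Glra1, Glra3 and Glra4 differed from Glra2 at 16, 17 and 13 of the 68 bases, and Glrb differed at 24. Over the aligned coding sequences the alpha subunits were 74.5 to 77.8% identical to each other and 64.1 to 66.1% identical to Glrb. The gene counts of all 9 genes were within 0.005 of a whole number in both libraries, so the tables show no read divided between one of them and another gene.

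Of the 9 genes, 8 were detected, meaning at least 1 TPM (a level per transcript length, scaled to a fixed sum in each library) in both libraries. The same held for 54.6% of protein-coding genes (11725 of 21461). The median over the 9 genes was 15.7 TPM, beside 2.07 TPM over all coding genes, and 6 of the 9 lay at or above the median of detected coding genes (8.11 TPM). The levels had 3 tiers in both libraries. Slc6a9, Glrb, Slc32a1, Glra2, Gphn and Slc6a5 had over 9 TPM, Glra1 and Glra3 had 1 to 5 TPM, and Glra4 was at or near 0. In bulk tissue, fewer cells of a type and less RNA per cell cannot be told apart.

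**Figure D1:**
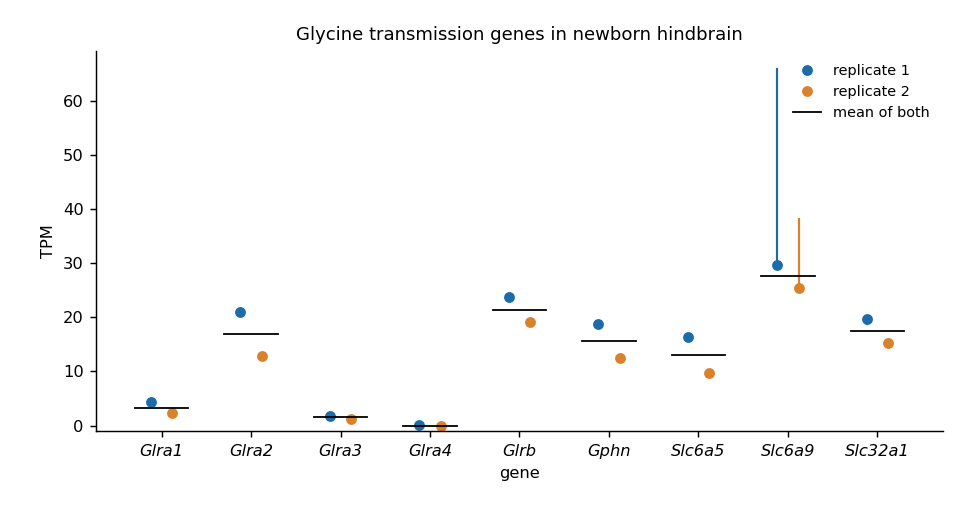
TPM of each glycine transmission gene in both libraries. Blue points are replicate 1, orange points replicate 2, black bars the mean, and vertical lines the deposited interval, shorter than the point for every gene but Slc6a9. Slc6a9 is highest at 29.8 and 25.4 TPM, and Glra4 sits at 0.01 and 0 TPM.

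A shared factor bears on every TPM below. Coding genes held 28.1% of all TPM in replicate 1 and 19.3% in replicate 2, a ratio of 1.46, so a coding gene with equal standing in both libraries has a higher TPM in replicate 1. All values after ± are the SD over both libraries (n = 2), and those of TPM as deposited contain that factor. Ratios between genes and shares within a library do not, and the ratios were used to order the levels. The libraries held 54313140 (replicate 1) and 77142270 (replicate 2) expected counts. The tissue label was set against marker genes: 10 of 12 hindbrain genes and 6 of 6 neuron genes were detected, against 0 of 9 forebrain, 0 of 8 posterior spinal cord and 0 of 5 retina genes. Markers of astrocytes (6 of 6), oligodendrocyte precursors (4 of 4), endothelium (4 of 4) and microglia (4 of 5) were detected too.

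Glra2 was the leading alpha subunit gene in both libraries. It had 21.1 TPM in replicate 1 and 12.8 TPM in replicate 2, from 4892 and 6030 expected counts. Glra1, whose subunit forms most adult receptors of the brainstem, had 4.36 and 2.24 TPM from 681 and 750 counts. Glra3, whose subunit is known from pain pathways of the spinal cord, had 1.82 and 1.23 TPM from 256 and 334 counts. The ranges of these genes did not overlap.

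Glra2 (ENSMUSG00000018589.8, chrX:165129017-165327393, minus strand, mm10) averaged 16.9 ± 5.85 TPM (SD, n = 2) and Glra1 (ENSMUSG00000000263.11, chr11:55514238-55608198, minus) 3.30 ± 1.499 TPM. The ratio of Glra2 to Glra1 was 4.83 in replicate 1 and 5.71 in replicate 2, a log2 ratio of 2.39 ± 0.17. Glra2 made up 77.3% and 78.6% of the summed alpha subunit TPM, Glra1 16.0% and 13.8%, and Glra3 6.68% and 7.57%. The share of Glra2 thus varied by 0.963 percentage points (SD) around 78.0%, a small spread beside that of its TPM. Glra3 (ENSMUSG00000038257.8, chr8:55940460-56130070, plus) averaged 1.52 ± 0.417 TPM. Glra1 exceeded Glra3 by 1.06 ± 0.28 on the log2 scale.

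Glra4 (ENSMUSG00000018595.6, chrX:136757674-136780141, minus) was not detected at this depth. Replicate 1 had 1 count and replicate 2 had 0, and exact Poisson 95% intervals, which cover counting error only, ran from 0.0253 to 5.57 and from 0 to 3.69 counts. A floor of 3 counts would be 0.0297 and 0.0130 TPM. The single count fell on Glra4-202, a transcript with a retained intron. The non-coding gene BC065397 runs across Glra4 on the opposite strand and had 62 and 204 counts and the files do not say whether reads were counted by strand.

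Glrb (ENSMUSG00000028020.12, chr3:80843599-80913660, minus) was the highest receptor gene, with 23.9 and 19.1 TPM from 5201 and 8210 counts, an average of 21.5 ± 3.39 TPM. The summed alpha subunits had 27.2 and 16.2 TPM. They were therefore above Glrb in replicate 1 (log2 ratio 0.19) and below it in replicate 2 (log2 ratio −0.23). The average of −0.02 ± 0.30 left the alpha sum and Glrb indistinguishable against the spread. Glra2 alone was below Glrb in both libraries, with log2 ratios of −0.18 and −0.58.

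Gphn (ENSMUSG00000047454.7, chr12:78226379-78684772, plus) had 18.9 and 12.5 TPM from 4604 and 6215 counts, an average of 15.7 ± 4.46 TPM. It was below the subunit gene that its product binds in both libraries. The log2 ratio of Gphn to Glrb was −0.34 and −0.60, a mean of −0.47 ± 0.19, or 0.721-fold. Messages were measured, not proteins, and gephyrin is also bound by GABA-A receptors and made outside neurons.

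**Figure D2:**
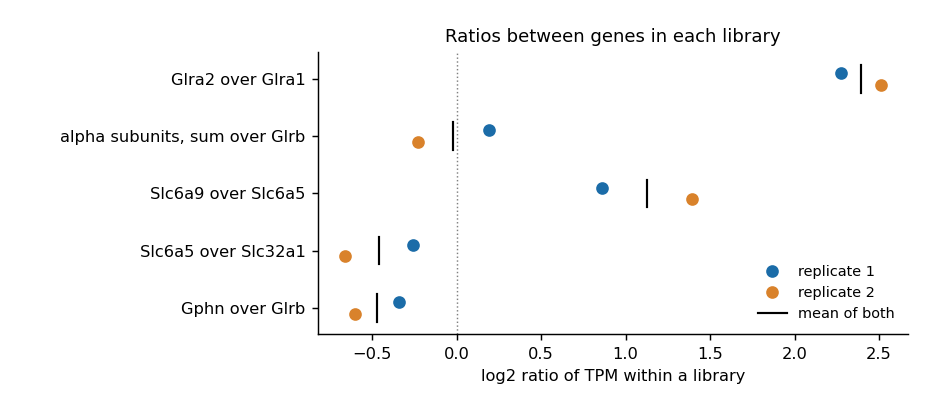
Log2 ratio of TPM between pairs of glycine transmission genes within each library. Blue points are replicate 1, orange points replicate 2, and black bars the mean. Glra2 exceeds Glra1 and Slc6a9 exceeds Slc6a5 in both libraries, while the alpha subunit sum over Glrb lies on both sides of 0.

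Of the plasma membrane transporter genes of glycine, Slc6a9 exceeded Slc6a5. Which cells made either message was not measured. Slc6a9 (ENSMUSG00000028542.13, chr4:117834506-117875198, plus) had 29.8 and 25.4 TPM from 6311 and 10388 counts, an average of 27.6 ± 3.11 TPM. Slc6a5 (ENSMUSG00000039728.10, chr7:49910146-49963856, plus) had 16.4 and 9.66 TPM from 6474 and 8184 counts, an average of 13.0 ± 4.78 TPM. Both values of Slc6a9 lay above both values of Slc6a5. The ratio of Slc6a9 to Slc6a5 was 1.81 in replicate 1 and 2.63 in replicate 2, a log2 ratio of 1.13 ± 0.38. With the deposited posterior mean TPM the log2 ratio was 1.51, because the level of Slc6a9 was then 42.3 and 29.8 TPM. The deposited interval of Slc6a9 was correspondingly wide, at 29.4 to 66.1 TPM in replicate 1 and 25.0 to 38.2 TPM in replicate 2. That difference lay in Slc6a9-208, a transcript of 244 nt, shorter than the mean fragment of 315 (replicate 1) and 297 nt (replicate 2). It had 27.7% and 13.8% of the posterior mean TPM of its gene but 0 in the maximum likelihood values.

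Slc32a1 (ENSMUSG00000037771.11, chr2:158610767-158615748, plus) had 19.6 and 15.3 TPM from 3992 and 6315 counts, an average of 17.5 ± 3.08 TPM. Slc6a5 was below it in both libraries, with log2 ratios of −0.26 and −0.66 and a mean of −0.46 ± 0.29. The enzyme genes of GABA stood on either side of Slc6a5. Gad1, which makes most GABA in the cell body, exceeded Slc6a5 by 1.01 ± 0.09 on the log2 scale, and Gad2, the enzyme concentrated in terminals, was below it at −0.54 ± 0.01. The small SD for Gad2 holds for TPM but not for counts, since Gad2 had 3290 and 5374 counts against 6474 and 8184 for Slc6a5, a lower ratio in replicate 1 than in replicate 2.

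By mean TPM the order was Slc6a9, Glrb, Slc32a1, Glra2, Gphn, Slc6a5, Glra1, Glra3 and Glra4. Each step between detected neighbours was taken as a log2 ratio within each library and set against its SD. Of 7 steps, 5 were larger than their SD. The genes were ordered by their mean in the same 2 libraries, so this rule is a weak description and no test. Slc32a1 and Glra2 did not differ beyond their spread (0.08 ± 0.25, with opposite signs in the libraries). Nor did Glra2 and Gphn, though only just (0.09 ± 0.09, with the same sign in both libraries). The largest step separated Slc6a5 from Glra1, at 2.01 ± 0.14. Among coding genes the level of Slc6a9 stood at the percentile of 92.5, that of Glra2 at 86.2, that of Glra1 at 56.4 and that of Glra3 at 46.7.

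Rescaling TPM to an equal sum over coding genes takes out the factor shared by the libraries. The averages hardly moved, because the rescaling nearly keeps the mean of both libraries, but the spread did. Gphn then had 15.7 ± 0.342 TPM and Glra3 1.52 ± 0.0163 TPM, so nearly all of their SD had come from that factor. For Glra3 so small an SD holds for TPM but not for the scaled counts given below. Their log2 ratio between the libraries was 0.12, with a counting interval from −0.11 to 0.36. Glra2 had 16.7 ± 1.45 TPM, Glra1 3.21 ± 0.653 TPM and Slc6a5 12.9 ± 1.40 TPM, with replicate 1 still the higher. Slc6a9, at 28.1 ± 4.30 TPM, had a wider spread than before, and its level was the higher in replicate 2 on this scale. Glrb (21.8 ± 2.34 TPM) and Slc32a1 (17.7 ± 1.57 TPM) were also the higher in replicate 2 on this scale.

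The transcript tables add which message of each gene was counted. The files list 31 transcripts of the 9 genes, of which 16 averaged at least 5% of the TPM of their gene. Glra2 and Slc32a1 have 1 annotated transcript each, so the known choice between alternative exons of Glra2 was not measured. For the other 6 detected genes, the stretches that tell the leading transcripts apart are printed below where they are short. Capitals mark the differing bases and lower case the flanking coding bases, 5′ to 3′ in the direction of transcription, from GENCODE M21 on mm10. In Glra1 a segment of 24 bases at chr11:55515104-55515127 (minus strand) is present in Glra1-201 and absent from Glra1-202. It adds residues to the intracellular loop of the subunit.
Glra1-201: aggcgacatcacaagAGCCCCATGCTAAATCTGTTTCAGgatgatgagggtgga
Glra1-202: aggcgacatcacaaggatgatgagggtgga
Glra1-202, without the segment, had 53.5% of the TPM of Glra1 in replicate 1 and 79.7% in replicate 2, and Glra1-201 had 45.1% and 20.3%. In TPM, Glra1-202 had 2.33 and 1.79, while Glra1-201 had 1.96 and 0.46. The short form led in both libraries but by an amount that differed widely, at 66.6 ± 18.5%. The transcripts also differ before the start codon (88 bases in Glra1-201 against 465 in Glra1-202), so the division does not rest on the segment alone.

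In Glra3 the exon of 45 bases at chr8:56112830-56112874 (plus strand) marks the long form of the subunit, which is known to cluster at synapses.
Glra3-201: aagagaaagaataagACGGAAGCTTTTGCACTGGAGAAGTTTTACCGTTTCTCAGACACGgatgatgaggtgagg
Glra3-201 held 90.6% and 95.9% of the TPM of Glra3. No transcript without this exon but otherwise complete is annotated, so the share of the short form was not measured. The remaining 9.39% and 4.08% belonged to Glra3-202, which has 5 exons and no coding sequence. Glra3-201 was counted as a model of 1867 nt, against 6508 nt in GENCODE M21. The level of Glra3 and these shares rest on that shorter model.

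Glrb-201, the complete coding message, held 93.9% of the TPM of Glrb in replicate 1 and 84.6% in replicate 2. Transcripts that are not annotated as coding took 5.94% and 13.2%, or 1.42 and 2.52 TPM. The highest of them on average was Glrb-204, annotated as a target of nonsense-mediated decay, the process that destroys messages with an early stop. It lacks 4 bases at chr3:80879729-80879732 (minus strand).
Glrb-201: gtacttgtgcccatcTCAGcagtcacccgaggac
Glrb-204: gtacttgtgcccatccagtcacccgaggac
Glrb-204 had 2.63% and 8.10%, from 137 and 685 expected counts. The loss of these bases leaves an open frame of 174 bases, against 1488 in Glrb-201. A transcript with a retained intron, Glrb-205, had 2.90% and 4.12%.

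Gphn has 2 annotated transcripts, which differ by 3 exons that are skipped or used as cassettes. Gphn-202 has an exon of 108 bases at chr12:78493950-78494057 (plus strand), known as the C3 cassette and best described in messages made outside neurons. Gphn-201 has an exon of 57 bases at chr12:78522898-78522954 and one of 42 bases at chr12:78532657-78532698.
Gphn-202: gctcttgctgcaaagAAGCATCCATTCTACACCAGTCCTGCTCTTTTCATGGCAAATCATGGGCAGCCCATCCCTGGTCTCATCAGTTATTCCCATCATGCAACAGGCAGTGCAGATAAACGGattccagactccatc
Gphn-201, exon of 57 bases: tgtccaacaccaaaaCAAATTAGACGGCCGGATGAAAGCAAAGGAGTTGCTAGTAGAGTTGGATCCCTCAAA
Gphn-201, exon of 42 bases: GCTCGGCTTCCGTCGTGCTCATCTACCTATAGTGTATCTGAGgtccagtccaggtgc
Gphn-202 held 72.0% of the TPM of Gphn in replicate 1 and 57.1% in replicate 2, and Gphn-201 held 28.0% and 42.9%. Gphn-202 had 13.6 and 7.16 TPM, while Gphn-201 had 5.28 and 5.38 TPM. Gphn-202 was therefore the larger in both libraries. A message without any of the 3 exons is not annotated, and its reads would be divided between the listed transcripts, so the shares are not shares of exon use.

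The 2 transcripts of Slc6a5 have the same 2373 coding bases and differ outside them. Slc6a5-201 extends 4432 bases past the stop codon and held 57.9% and 64.3% of the TPM of its gene. Slc6a5-202 extends 69 bases past it and held 42.1% and 35.8%, so the long form led in both libraries.

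Slc6a9 has 12 annotated transcripts, which begin at different first exons and so give transporters with different N-terminal ends. The upstream starts give the form known as GlyT1a and the downstream start that known as GlyT1b. The first coding bases of Slc6a9-201 lie at chr4:117843106-117843135 and those of Slc6a9-204 at chr4:117849422-117849466 (plus strand), both followed by the same exon in lower case.
Slc6a9-201: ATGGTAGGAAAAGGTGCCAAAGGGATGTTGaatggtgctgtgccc
Slc6a9-204: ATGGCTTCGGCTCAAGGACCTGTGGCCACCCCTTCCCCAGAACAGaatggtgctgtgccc
The 6 transcripts of the upstream starts held 79.0% of the TPM of Slc6a9 in replicate 1 and 75.3% in replicate 2, and the 3 of the downstream start held 20.8% and 24.7%. In TPM the upstream group averaged 21.3 ± 3.13 and the downstream group 6.23 ± 0.064. The small SD of the downstream group holds for TPM as deposited but not for its share, which was the higher in replicate 2. The upstream group led in both libraries. Within it, Slc6a9-201 (41.8% and 33.7%) and Slc6a9-202 (35.1% and 38.8%) have the same 1899 coding bases and different leaders. Slc6a9-204 had 17.1% and 24.1% and is a model of 1194 nt that ends within the coding sequence, so reads from the rest of a downstream message are shared with the other transcripts.

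**Figure D3:**
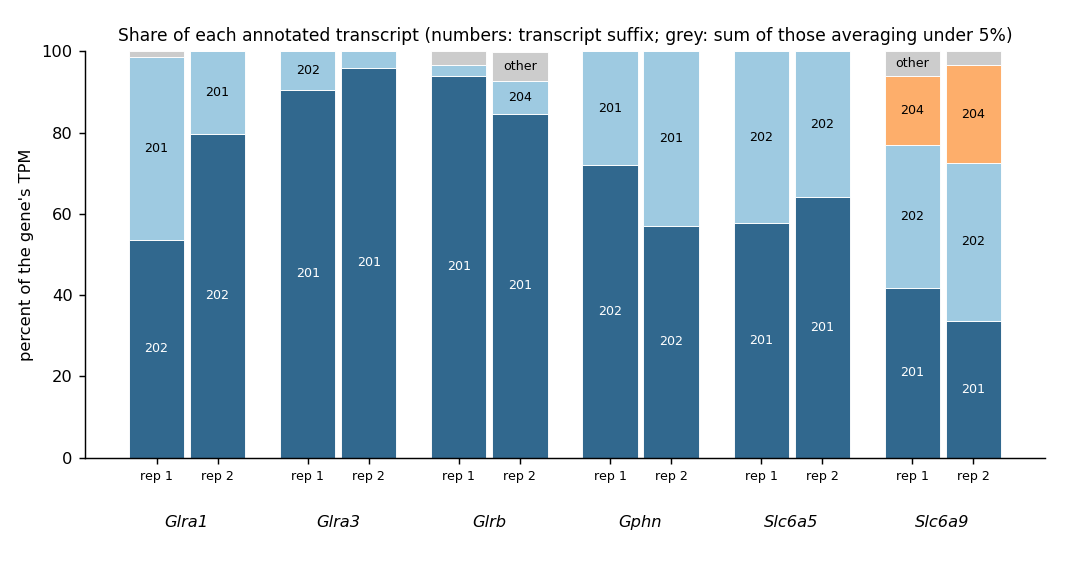
Percent of the TPM of each gene by annotated transcript, in replicates 1 and 2 (rep 1 and rep 2) of the 6 detected genes with several transcripts. Numbers are transcript suffixes and grey is the sum of transcripts averaging under 5%. Glra1-202 takes 53.5% and 79.7%, and Slc6a9 changes its first-ranked transcript between the libraries.

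The leading transcript was the same in both libraries for 5 of these 6 genes. It differed for Slc6a9 alone, and among detected coding genes with several transcripts it differed in 19.1% (1655 of 8677). The share of the leading transcript by mean differed by at least 10 percentage points for Glra1 (26.1 points) and Gphn (14.9 points), or 2 of 6, and in 41.5% of those genes as a whole. The median difference was 8.73 points over the 6 genes and 7.56 points over all 8677. The median leading share was 65.6% over the 6 genes and 69.1% over all.

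Counts were scaled by TMM (a factor per library from genes of all levels). On that scale the glycine transmission genes differed between the libraries about as much as genes whose mean count reached 200. That set has a minimum count and was not matched to the counts of these genes. Of the 8 genes whose mean count reached 10, 0 differed by 1.5-fold or more. The share was 24.6% of the 17629 genes at that minimum and 8.56% of the 12811 genes whose mean count reached 200. All 8 genes also reached 200, the lowest being Glra3 at 295. With 8 genes, a count of 0 does not set them apart from a share of 8.56%. The median absolute log2 ratio of the 8 genes was 0.16, beside 0.23 over the 17629 genes and 0.17 over the 12811 genes. The largest was that of Glra1, at 12.7 CPM (scaled counts relative to library size) in replicate 1 and 9.83 CPM in replicate 2, a log2 ratio of 0.37 with a counting interval (95%) of 0.22 to 0.52. The intervals lay above 0 for Glra1, Glra2 (0.21), Slc6a5 (0.17) and Gphn (0.08), and below 0 for Slc6a9 (−0.21), Slc32a1 (−0.15) and Glrb (−0.15). That of Glra3 held 0 (0.12, from −0.11 to 0.36). These intervals cover counting error between these libraries and say nothing of other animals. The share of all genes whose interval leaves out 0 was not counted. The intervals therefore do not set these genes apart from others. With spike-in totals as the scale, the median of all genes was −0.11 and Gphn was −0.02, while the other genes kept their sign.

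The counts of cell type markers were compared between the libraries in the same way. The median log2 ratio of replicate 1 to replicate 2 was −0.12 over the 6 astrocyte markers, whose summed TPM was 248 and 177, and 0.05 over the 6 neuron markers, whose summed TPM was 1598 and 1071. It was −0.15 over 5 microglia markers, 0.13 over 4 endothelium markers and 0.11 over 4 oligodendrocyte precursor markers. Over 14 transcription factors of inhibitory neurons it was 0.11. Single genes whose mean count reached 200 had a median absolute log2 ratio of 0.17. Each list was mixed: 2 of 6 astrocyte markers, 4 of 6 neuron markers and 9 of the 14 factors were higher in replicate 1. So were 1 of 5 microglia, 3 of 4 endothelium and 3 of 4 oligodendrocyte precursor markers. The genes of glycine neurons were mixed too, with Slc6a5 at 0.17 and Slc32a1 at −0.15. The part of cell makeup in these differences was not tested.

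**Figure D4:**
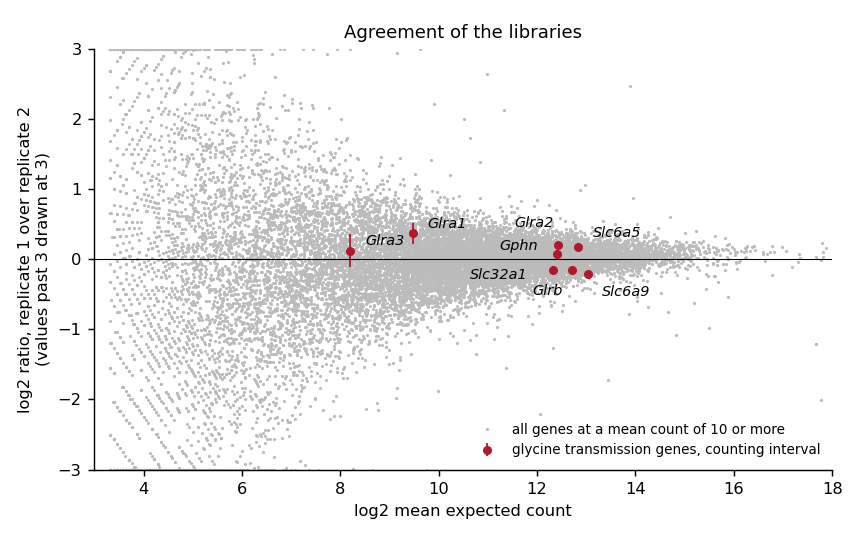
Log2 ratio of TMM-scaled counts (replicate 1 over replicate 2) against log2 mean expected count. Grey points are all genes at a mean count of 10 or more and red points the 8 glycine transmission genes at that minimum, with counting intervals. The red points lie between −0.21 and 0.37, within the cloud of genes with like counts.

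The genes around glycine transmission were described by 7 lists. Levels are means over both libraries in TPM. The counts of detected genes in these lists stand beside 54.6% of all protein-coding genes. All 17 genes for partners of gephyrin and of the receptor were detected, with a median of 16.2 TPM. The actin-binding genes Pfn1 and Pfn2, whose products bind gephyrin, were highest at 123 ± 48.7 and 88.0 ± 21.2 TPM. The lowest was Slitrk3, an adhesion gene of inhibitory synapses, at 6.51 ± 0.940 TPM.

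Of the 7 genes of the molybdenum cofactor path, 4 were detected, with a median of 3.80 TPM. Mocs2 and Mocs3, which act before gephyrin in that synthesis, had 8.90 ± 0.177 and 6.14 ± 1.95 TPM. The enzyme genes Aox1 and Xdh were lowest, at 0.175 ± 0.007 and 0.040 ± 0.028 TPM.

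All 9 genes of glycine synthesis and breakdown were detected, with a median of 8.21 TPM. Phgdh and Psat1, which make the serine from which glycine is formed, had 84.1 ± 18.5 and 21.1 ± 3.67 TPM. Gldc, the decarboxylase of the glycine cleavage system, had 3.67 ± 0.764 TPM and Shmt1, the cytosolic enzyme that turns serine into glycine, 3.16 ± 1.24 TPM.

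Of 9 other plasma membrane carriers that accept glycine, 6 were detected, with a median of 8.46 TPM. Slc38a2 and Slc38a1, carriers of glutamine and other small neutral amino acids, had 19.2 ± 4.65 and 15.1 ± 4.48 TPM. Slc6a14 had 0 counts in both libraries, below a floor of 0.0117 and 0.00578 TPM. Slc6a20b had 0.075 ± 0.078 TPM, and since it is a near copy of Slc6a20a with counts that were not whole, its value is uncertain.

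All 6 genes of GABA synthesis and uptake were detected, with a median of 30.9 TPM. The GABA transporter gene Slc6a11 had 70.7 ± 16.0 TPM, above every glycine transmission gene in both libraries. Slc6a13, a transporter gene of meninges and vessels, had 11.4 ± 0.431 TPM and Gad2 8.93 ± 3.20 TPM.

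Both chloride cotransporters were detected. Slc12a5 (KCC2), which lowers chloride in neurons so that glycine inhibits, had 75.5 ± 19.3 TPM and Slc12a2 (NKCC1), which brings chloride in, 5.42 ± 1.13 TPM. Slc12a5 exceeded Slc12a2 by 3.79 ± 0.07 on the log2 scale. The values include all cell types, and Slc12a2 is not limited to neurons.

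Of 14 transcription factors of inhibitory neurons of hindbrain and spinal cord, 11 were detected, with a median of 2.64 TPM. Lhx1 and Pax8, which act in inhibitory neurons as they form, had 11.9 ± 2.73 and 9.25 ± 4.43 TPM. The lowest were Dmrt3 and Wt1, genes of inhibitory neurons of the spinal cord, at 0.275 ± 0.304 and 0.205 ± 0.233 TPM.

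**Figure D5:**
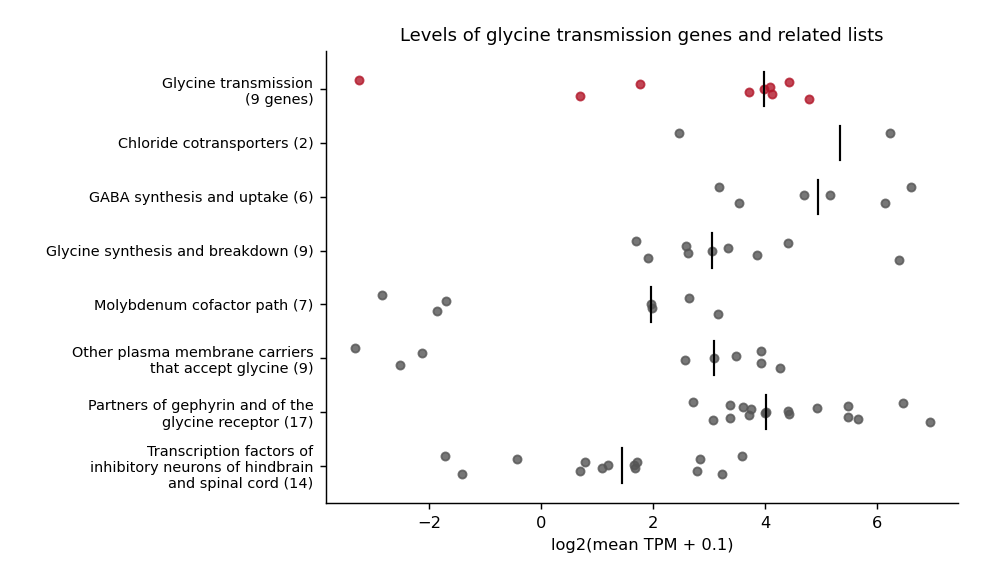
Log2(mean TPM + 0.1) of the 9 glycine transmission genes (red) and of the 7 related lists (grey). Each point is a gene and each black bar the median of its list, which is 15.7 TPM for the glycine transmission genes and 16.2 TPM for the partners of gephyrin and of the receptor.

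Genes on the opposite strand overlap some of these loci. B4galt2 (10532 and 14712 counts) and Ccdc24 (189 and 181 counts) overlap the far end of Slc6a9. The expected counts of Slc6a9 were whole in both libraries (6311 and 10388), so no read is seen divided between it and these genes. Whether reads were counted by strand is not stated. At Slc32a1 the antisense gene Gm14205 had 0 and 2 counts, and at Glra1 the antisense gene Gm12236 had 0 in both.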

How the data were processed

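Paired reads were quantified by the authors per gene and per transcript for each library. Per the deposited file notes the tables rest on transcriptome alignments to mm10 with GENCODE M4, while the sources used here give neither aligner nor quantifier. The deposited values, per the file headers, are expected counts (estimated, not always whole), TPM per effective length, FPKM, percent of a gene's TPM per transcript, and posterior mean values with intervals of unstated level. FPKM was not used. Symbols, coordinates and sequences came from GENCODE M21 on mm10 by Ensembl identifier, which matched 98.0% of 43346 mouse genes. Of the 31 transcripts, 28 had the same length in both releases, and Glra3-201, Gphn-201 and Gphn-202 did not.

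Expected counts were rounded for TMM scaling in edgeR 4.0.16 (R 4.3.3) with a prior count of 2, and the script was tested on simulated data. Other scalings tried were DESeq2 1.42.0 size factors, total counts on mouse genes and totals of spike-ins. A gene was detected at 1 TPM or more in both libraries, and a count of 0 was set against 3 counts. Spike-ins and other rows without a mouse Ensembl gene identifier were left out of library sizes, which were 53617723 and 76299141 counts. Mouse genes without a symbol were kept in them. Intervals cover counting error only. Ratios between genes used TPM without a pseudocount. All 9 genes are named, and of each list the 2 highest and 2 lowest by mean TPM, of which some are not reported here. The genes and lists were chosen with earlier results of these data known.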

Additional observations from a re-analysis of the deposited data

How the results depend on the processing

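No paired analysis was possible because the series has 1 group. With both libraries kept, 40 of 43 alternative values of levels, ratios and shares stayed within 1 SD of the value reported and 3 moved. The alternative values of levels are TPM rescaled to coding genes, which could hardly move and are no check of stability. That rescaling nearly keeps the mean of both libraries, and the SD it was set against contains the factor shared by the libraries. Keeping protein-coding transcripts only could likewise not move the ratios of Slc6a5 to Slc32a1 and of Glra2 to Glra1. All listed transcripts of these genes are coding. With a pseudocount of 1 TPM the log2 ratio of Glra2 to Glra1 was 2.06. With posterior mean TPM the log2 ratio of Slc6a9 to Slc6a5 was 1.51 and the share of the leading transcript of Slc6a9 was 28.6%, with Slc6a9-208 holding the difference. The log2 ratio of the alpha sum to Glrb, −0.02 as reported, changed sign to 0.12 with protein-coding transcripts only, within its SD of 0.30. A detection threshold of 2 TPM left 7 of the 9 genes. Values of 1 library at a time are given as ranges and are no check of stability, since with 2 libraries each lies within 1 SD of their mean by construction. In each library 8 genes were detected, and levels ran from 2.24 to 4.36 TPM for Glra1, 12.78 to 21.06 for Glra2, 1.23 to 1.82 for Glra3, 0 to 0.01 for Glra4, 19.07 to 23.87 for Glrb, 12.54 to 18.85 for Gphn, 15.28 to 19.63 for Slc32a1, 9.66 to 16.42 for Slc6a5 and 25.38 to 29.78 for Slc6a9. The log2 ratio ran from 2.27 to 2.51 for Glra2 to Glra1, −0.23 to 0.19 for the alpha sum to Glrb, 0.86 to 1.39 for Slc6a9 to Slc6a5, −0.66 to −0.26 for Slc6a5 to Slc32a1 and −0.60 to −0.34 for Gphn to Glrb. The Glra2 share of the alpha sum ran from 77.3 to 78.6%. The leading share ran from 53.5 to 79.7% for Glra1, 90.6 to 95.9% for Glra3, 84.6 to 93.9% for Glrb, 57.1 to 72.0% for Gphn, 57.9 to 64.3% for Slc6a5 and 33.7 to 41.8% for Slc6a9. Precision is limited by the number of libraries, and that of transcript shares also by the annotated models.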
